A study of Mus musculus with 5 samples.

Results

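The genes described here are 30 genes of cholesterol and fatty acid synthesis, chosen by name and matched by symbol among the 35976 genes of the count table. All 30 were found, and all 30 passed the filter on low counts, which kept 15532 genes. They were measured by bulk RNA sequencing of amygdala cells selected on beads against ACSA-2, a surface antigen of astrocytes. The mice carried Ccr2::CreERT2/+;DTR/+, that is, Cre driven from the Ccr2 locus and active after tamoxifen, together with a diphtheria toxin receptor (DTR), so the receptor is meant for CCR2-expressing cells such as monocytes and not for astrocytes. Every animal of both groups received tamoxifen, 18 days of tube restraint, fear conditioning and extinction. The groups differed by label in saline (2 libraries) or DTx, diphtheria toxin (3 libraries, called 5A, 6A and 7A), given during the restraint. The sources used here do not give the ages of the mice.

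Cholesterol is made in the brain itself, because lipoprotein cholesterol of the blood does not cross the blood-brain barrier. Acetyl-CoA is turned into mevalonate and isoprenoids, squalene is closed into lanosterol, and a series of membrane enzymes converts lanosterol into cholesterol. The transcription factors SREBP-1 and SREBP-2 switch these enzymes on. When membrane sterol is low, SCAP carries the SREBPs to the Golgi for cleavage, and when sterol is high, INSIG proteins hold SCAP back in the endoplasmic reticulum. Astrocytes supply cholesterol to neurons on lipoprotein particles, and oligodendrocytes make it for myelin. Fatty acid synthesis shares the acetyl-CoA supply and the SREBP control.

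Total counts were 15961220 to 23720299 per library. The libraries held astrocyte transcripts, with 12 astrocyte markers summing to 25702.5 to 30190 CPM (counts per 1e6 of the TMM-scaled library size), and also much oligodendrocyte RNA. Summed levels of 12 oligodendrocyte markers were 60755 and 93526 CPM with saline replicates 1 and 2, and 43312, 44590 and 91223 CPM for DTx 5A, 6A and 7A. Summed levels of 12 microglia markers were 107 and 267 CPM with saline, and 453, 325 and 263 CPM in the same DTx libraries. Fewer cells of a type and less RNA per cell cannot be told apart in such bulk samples. Ccr2 had 0 counts in both saline libraries and 62 in the libraries labelled DTx, 54 of them in 5A, which runs against the depletion the label names, so directions below are those of the libraries as labelled. Xist stood at 173 and 129 CPM with saline and at 0.159, 0 and 0 CPM under the DTx label, and 4 Y-linked genes summed to 0.185 and 0.0897 CPM with saline against 185 to 201 CPM, so sex chromosomes and treatment cannot be told apart. This holds for all 30 genes, whatever their chromosome. Nsdhl and Ebp lie on chromosome X. Of the other marker lists, 8 of 10 neuron markers had fold changes above 0, 7 of 10 markers of oligodendrocyte precursors and 9 of 10 endothelial and mural markers had fold changes below 0, all 9 mitochondrial mRNAs tested were above 0, and 0 genes of these lists passed the edgeR threshold.

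Promoter sequences were taken from RefSeq (GRCm38.p6) to show the letters through which SREBPs are known to act. A window of 300 bases around the start of transcription was held for 24 of the 30 genes. The core of the sterol regulatory element, TCACNCCAC, was found on either strand in the window of 1 of those 24 genes, against 1.44% of 27025 genes. The letters CCAAT, bound by NF-Y, a partner of the SREBPs, were in the windows of 20 of the 24, or 83.3%, against 41.1% of all genes. The palindrome CACGTG, an E-box, was in 5 of the 24, or 20.8%, against 8.09%. A match is a description of letters and not a measured site, and no overlap between motifs was found in the printed windows. The 250 bases before the start are shown 5′ to 3′ on the strand of the gene for Hmgcs1, the gene with the sterol element, and for Elovl6, Ebp and Insig1, the 3 genes with the smallest p below, which were picked after their values were seen. Capitals mark TCACNCCAC, CACGTG, and CCAAT or its complement ATTGG.
Hmgcs1 (chr13:119690101-119690350, plus strand): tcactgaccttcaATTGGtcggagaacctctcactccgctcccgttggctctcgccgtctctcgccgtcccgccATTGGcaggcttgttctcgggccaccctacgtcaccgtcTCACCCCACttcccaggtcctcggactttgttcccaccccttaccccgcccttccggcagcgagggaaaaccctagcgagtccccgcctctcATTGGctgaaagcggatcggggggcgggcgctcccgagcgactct
Elovl6 (chr3:129532136-129532385, plus strand): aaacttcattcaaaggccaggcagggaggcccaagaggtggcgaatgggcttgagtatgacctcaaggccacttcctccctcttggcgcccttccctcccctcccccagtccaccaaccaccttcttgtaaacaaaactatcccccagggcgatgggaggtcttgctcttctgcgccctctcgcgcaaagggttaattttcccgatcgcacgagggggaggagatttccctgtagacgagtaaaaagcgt
Ebp (chrX:8193513-8193762, minus strand): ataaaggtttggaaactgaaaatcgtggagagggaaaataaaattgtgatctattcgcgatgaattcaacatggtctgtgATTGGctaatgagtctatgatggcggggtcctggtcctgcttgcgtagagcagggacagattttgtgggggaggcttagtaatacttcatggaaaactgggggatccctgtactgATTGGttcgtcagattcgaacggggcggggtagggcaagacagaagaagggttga
Insig1 (chr5:28071162-28071411, plus strand): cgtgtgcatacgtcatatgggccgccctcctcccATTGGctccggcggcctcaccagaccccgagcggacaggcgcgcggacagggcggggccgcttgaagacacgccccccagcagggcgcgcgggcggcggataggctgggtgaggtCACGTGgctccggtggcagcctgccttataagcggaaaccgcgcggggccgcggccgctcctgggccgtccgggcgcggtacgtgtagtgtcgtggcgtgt
In Hmgcs1 the element TCACCCCAC lies at positions -137 to -129, counting the base before the start as -1, between ATTGG motifs at -176 to -172 and -45 to -41. Ebp holds a pair of ATTGG motifs, Insig1 holds ATTGG and CACGTG, and Elovl6 holds none of these letters in the printed window.

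The comparison asked how the labelled monocyte depletion during chronic stress related to lipid synthesis genes of the selected cells. No member passed edgeR's quasi-likelihood test at an adjusted p of 0.05 in either direction, where 0.0322% of all genes tested passed. The genes that passed were Xist, lower under the DTx label, and the 4 Y-linked genes, all higher. No other gene passed. DESeq2, limma-voom and the edgeR likelihood ratio test also called 0 of the 30. At an unadjusted p under 0.05 there was 1 member, Elovl6, which was lower under the DTx label, beside 2.19% of all genes in that direction and 4.49% in the other. The count at that p was 0 without 5A, 0 without 6A and up to 3 under other settings. Fold changes were above 0 for 12 members and below 0 for 18, where 50.4% and 49.6% of all genes were above and below 0. The members had a median log2 fold change (DTx over saline) of -0.05 beside 0.0024 over all genes. Groups did not overlap for 2 members with DTx lower, Ebp and Elovl6, and for 0 members with DTx higher, where 8.99% and 12.1% of all genes did so. The counts of members without overlap thus lie near or below the background.

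The size of any difference was bounded by the spread between libraries. The 95% interval of the log2 fold change included 0 for 29 of the 30 members, and it lay between -1 and 1, that is, within a doubling and a halving, for 28 of them. Scap and Insig1 had lower bounds of -1.11 and -1.0003.

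**Figure D1:**
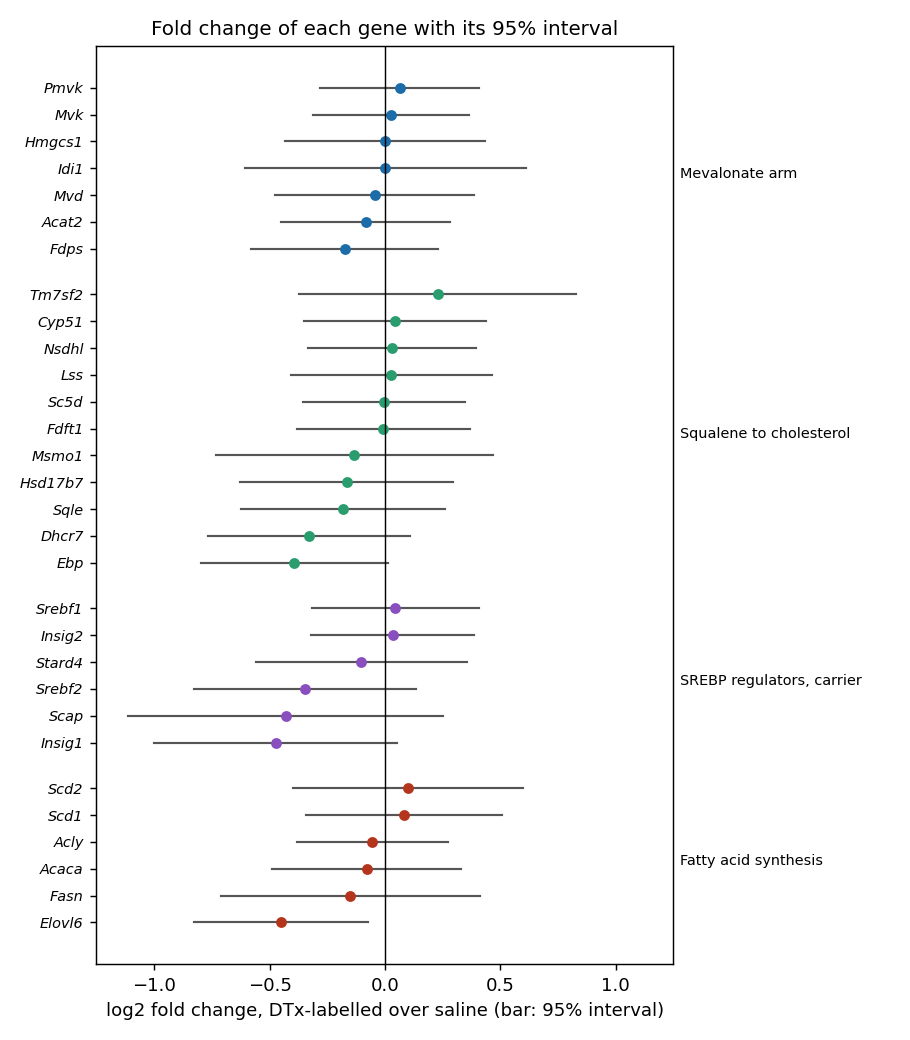
Log2 fold change of each of the 30 genes, DTx-labelled over saline libraries (points), with its 95% interval from edgeR's quasi-likelihood fit (bars), grouped by role. Only the interval of Elovl6 leaves out 0, and its adjusted p is 0.742.

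Levels per length showed which genes of the pathway were most abundant. Divided by exonic length (all annotated exons of the gene in GENCODE M21, GRCm38, joined), the mean level over the 5 libraries was 804 CPM per kilobase for Scd2, 295 for Scd1, 121 for Hmgcs1, 59.4 for Sc5d, 45.9 for Insig1 and 45.1 for Msmo1. The lowest levels on this scale were 2.41 for Acaca, 3.86 for Tm7sf2 and 4.20 for Idi1. Scd1 and Scd2 alone held 60.6% to 69.4% of the summed CPM of the 30 genes in each library. Even the gene with the lowest mean CPM, Idi1 at 14.7, lay above 49.7% of the genes tested.

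**Figure D2:**
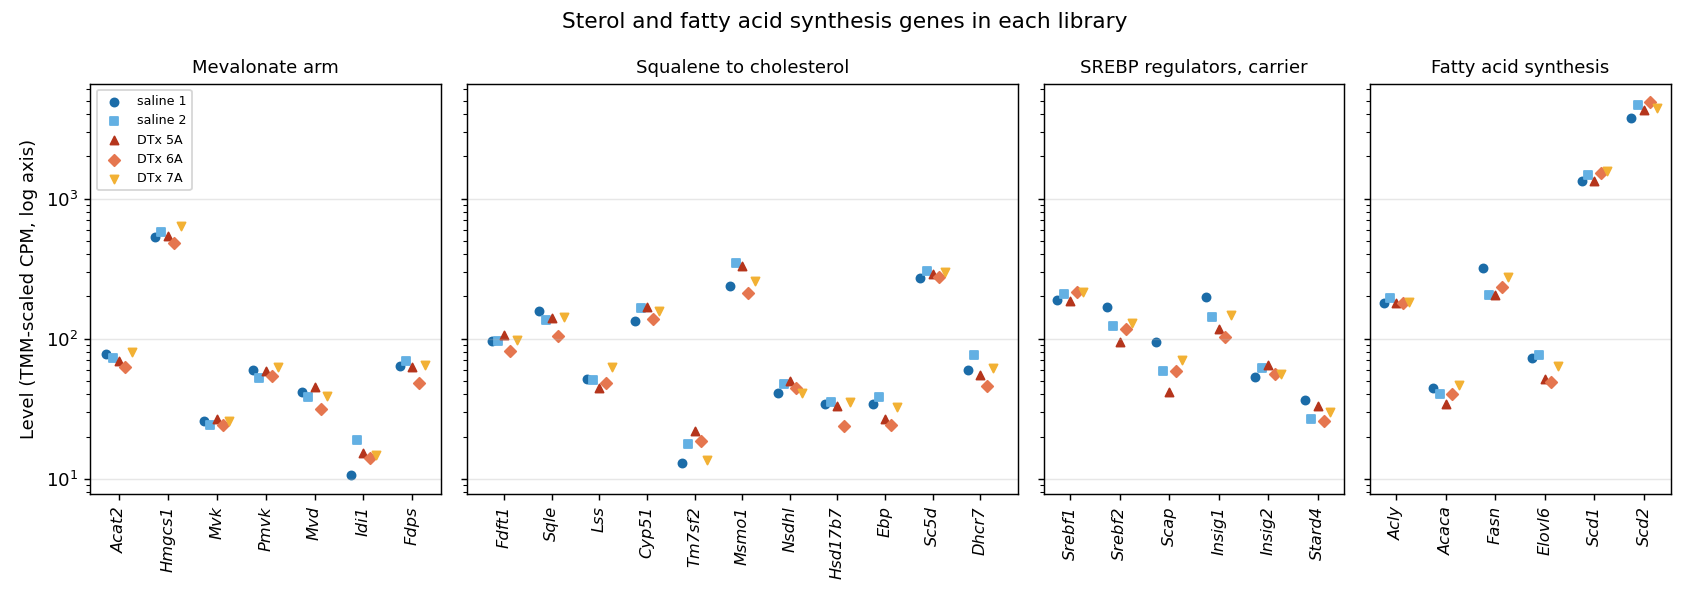
TMM-scaled CPM of each of the 30 genes in each of the 5 libraries (1 point a library, log axis), in 4 panels by role. Levels span 10.7 CPM (Idi1, saline replicate 1) to 4863 CPM (Scd2, DTx 6A), and for most genes the saline and DTx-labelled points mingle.

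The mevalonate arm, from acetyl-CoA to farnesyl diphosphate, had 7 members, with 4 fold changes above 0, 3 below and a median of 0.00078. Hmgcs1, the synthase that makes HMG-CoA, stood at 530 and 579 CPM with saline and at 544, 482 and 637 CPM for DTx 5A, 6A and 7A. Both the lowest and the highest library were DTx-labelled, and the group means were 554 ± 34.5 CPM (SD, n = 2) and 554 ± 78.1 CPM (SD, n = 3). The log2 fold change of Hmgcs1 was 0.0008 ± 0.18 (SE), with a 95% interval of -0.43 to 0.44. Hmgcs1 lies on chromosome 13 (119690379 to 119708260).

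Fdps, which makes farnesyl diphosphate, had the smallest p of this arm. Its levels were 63.5 and 69.0 CPM with saline and 63.1, 48.2 and 64.7 CPM in 5A, 6A and 7A, so that 6A alone stood well below the rest. The log2 fold change was -0.17 ± 0.17 (SE, edgeR adjusted p = 0.833). Acat2, the cytosolic thiolase that joins acetyl-CoA units, stood at 77.2 and 72.4 CPM with saline and at 69.7, 62.3 and 79.7 CPM under the DTx label. Pmvk, the phosphomevalonate kinase, stood at 59.7 and 52.1 CPM against 58.7, 53.8 and 62.8 CPM. In both genes the groups overlapped. Mvd, the decarboxylase that yields isopentenyl diphosphate, was at 41.4 and 38.2 CPM against 45.1, 31.5 and 39.1 CPM, again with the lowest value in 6A. The remaining enzymes of the arm were Mvk, the mevalonate kinase, with the narrow range of 24.2 to 26.7 CPM over all libraries, and Idi1, the isopentenyl diphosphate isomerase, whose saline libraries at 10.7 and 18.8 CPM enclosed all DTx values.

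The 11 enzymes from squalene to cholesterol had 4 fold changes above 0 and 7 below, with a median of -0.0072. Sc5d, the sterol C5 desaturase and the most abundant of them per length, was almost level, at 273 and 306 CPM with saline and 291, 277 and 299 CPM in 5A, 6A and 7A. Its log2 fold change was -0.0023 ± 0.15 (SE), with a 95% interval of -0.35 to 0.35. Sqle, the squalene epoxidase and a rate-limiting step, stood at 158 and 136 CPM with saline and at 141, 105 and 143 CPM under the DTx label. The low value was that of 6A, and the groups overlapped (log2 fold change -0.18 ± 0.19, SE).

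Ebp, the sterol isomerase that moves the double bond of the sterol ring, was the 1 enzyme of this arm whose groups did not overlap. Its levels were 34.4 and 38.5 CPM with saline and 26.5, 24.4 and 32.3 CPM in 5A, 6A and 7A. The log2 fold change was -0.39 ± 0.17 (SE), a 95% interval of -0.80 to 0.012, with an edgeR adjusted p of 0.759. The gap between the groups was narrow, since 7A lay just below saline replicate 1. Ebp lies on chromosome X (8185329 to 8193512). As for every gene here, the part of its difference that goes with sex chromosomes cannot be told apart from treatment.

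Dhcr7, the reductase of the last step to cholesterol, had the next smallest p. It stood at 59.4 and 76.8 CPM with saline and at 54.8, 46.3 and 61.5 CPM under the DTx label, where 7A lay above saline replicate 1. The log2 fold change was -0.33 ± 0.18 (SE, edgeR adjusted p = 0.773). Tm7sf2, a sterol C14 reductase, had the opposite sign, with 13.02 and 17.8 CPM with saline and 21.8, 18.7 and 13.6 CPM in 5A, 6A and 7A. It had the highest fold change of the 30, a log2 value of 0.23 ± 0.25 (SE), and its groups overlapped. Nsdhl, the other X-linked enzyme, was at 41.2 and 47.6 CPM against 50.1, 44.7 and 41.2 CPM, a log2 fold change of 0.031 with a 95% interval of -0.33 to 0.39.

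The other 5 enzymes of this arm overlapped between groups. Fdft1, the squalene synthase, had log2 fold change -0.0072. Lss, which closes squalene epoxide into lanosterol, had 0.028, and Cyp51, the lanosterol demethylase, had 0.043. Msmo1, the methylsterol oxidase, had -0.13 and ranged from 211 CPM (6A) to 347 CPM (saline replicate 2). Hsd17b7, a sterol ketone reductase, had -0.17, with 24.01 CPM in 6A and 33.4 to 35.1 CPM in the other 4 libraries.

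The 6 genes that encode SREBP regulators or a sterol carrier (Stard4) had a median log2 fold change of -0.22, with 2 above 0 and 4 below. That median rested on saline replicate 1, since it was -0.059 without it and -0.43 without saline replicate 2. Insig1, whose protein holds SCAP back when sterol is high and which is itself an SREBP target, had the lowest fold change of the 30 genes with all 5 libraries. Its levels were 199 and 142 CPM with saline and 117, 103 and 149 CPM for DTx 5A, 6A and 7A. Saline replicate 1 stood far above the others, and 7A lay above saline replicate 2. The log2 fold change was -0.47 ± 0.22 (SE), a 95% interval of -1.0003 to 0.0521, with an edgeR adjusted p of 0.764. Without saline replicate 1 the log2 fold change of Insig1 was -0.21, above that of Dhcr7 (-0.51), Elovl6 (-0.49) and Ebp (-0.47). Insig2, its paralog, was at 53.2 and 61.8 CPM against 64.6, 56.4 and 55.6 CPM (log2 fold change 0.034). The ratio of Insig2 to Insig1 in CPM was 0.267 and 0.435 in saline and 0.554, 0.548 and 0.374 under the DTx label, with overlap between groups.

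Scap, the escort protein of the SREBPs, had the widest range of all members. It stood at 95.2 and 58.8 CPM with saline and at 41.7, 59.1 and 70.7 CPM in 5A, 6A and 7A, so the highest library was 2.28 times the lowest. The pair of saline libraries alone spanned most of that range. Its log2 fold change was -0.43 ± 0.28 (SE, edgeR adjusted p = 0.791), and -0.044 without saline replicate 1. Srebf2, which encodes the main factor of cholesterol genes, stood at 167 and 123 CPM with saline and at 94.8, 118 and 129 CPM under the DTx label (log2 fold change -0.34 ± 0.20, SE, and -0.11 without saline replicate 1). As with Scap and Insig1, saline replicate 1 was the highest library for Srebf2. Srebf1, which encodes the factor tied more to fatty acid genes, was between 186 and 216 CPM in all 5 libraries, with a log2 fold change of 0.045 and a 95% interval of -0.32 to 0.41. Stard4, a soluble carrier of sterol, stood at 36.8 and 26.9 CPM with saline and at 32.9, 26.1 and 29.96 CPM under the DTx label, and saline replicate 1 was again the highest.

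The 6 fatty acid genes had 2 fold changes above 0 and 4 below, with a median of -0.066. Scd2, the main stearoyl-CoA desaturase of brain, which places the double bond of oleic acid, stood at 3748.5 and 4673 CPM with saline and at 4248, 4863 and 4436 CPM in 5A, 6A and 7A. Its log2 fold change was 0.10 ± 0.21 (SE), with a 95% interval of -0.40 to 0.60. Scd1, the neighbouring paralog on chromosome 19, stood at 1323 and 1461 CPM with saline and at 1341, 1515 and 1565 CPM under the DTx label, a log2 fold change of 0.082 ± 0.18 (SE). Scd2 exceeded Scd1 by 2.83 to 3.21 times in CPM in every library. The genes of these paralogs lie 87590 bases apart, and how reads that match both were counted is not stated.

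Elovl6, the elongase that extends palmitate to stearate, was the member with the smallest p. It stood at 72.8 and 76.6 CPM with saline and at 51.5, 49.1 and 63.5 CPM for DTx 5A, 6A and 7A. All 3 DTx-labelled libraries lay below both saline libraries, with 7A nearest to them. The log2 fold change was -0.45 ± 0.16 (SE), a 95% interval of -0.83 to -0.073, with an unadjusted p of 0.026 and an edgeR adjusted p of 0.742. Elovl6 lies on chromosome 3 (129532355 to 129638495). Its unadjusted p (edgeR quasi-likelihood test) was 0.078 without 5A, 0.104 without 6A and 0.0081 without 7A. The log2 fold changes were then -0.41, -0.38 and -0.57. They were -0.49 without saline replicate 1 and -0.41 without saline replicate 2. A p under 0.05 was thus lost without 5A or 6A, though the fold change moved little and a test with fewer libraries has less power.

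Beside this, the summed oligodendrocyte markers were lowest in 5A and 6A, the same libraries in which Elovl6 and Ebp were lowest. All 12 oligodendrocyte markers had fold changes below 0, with a median log2 value of -0.47 and 0 past the threshold. Ugt8a, the galactosyltransferase of myelin lipid, had the smallest p of them, at 351 and 370 CPM with saline and 174, 154 and 248 CPM under the DTx label (edgeR adjusted p = 0.734). Saline replicate 2 and 7A had like marker sums, yet Elovl6 was at 76.6 CPM in the former and 63.5 CPM in the latter. The part of the oligodendrocyte RNA in the values of Elovl6 and Ebp was not tested.

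**Figure D3:**
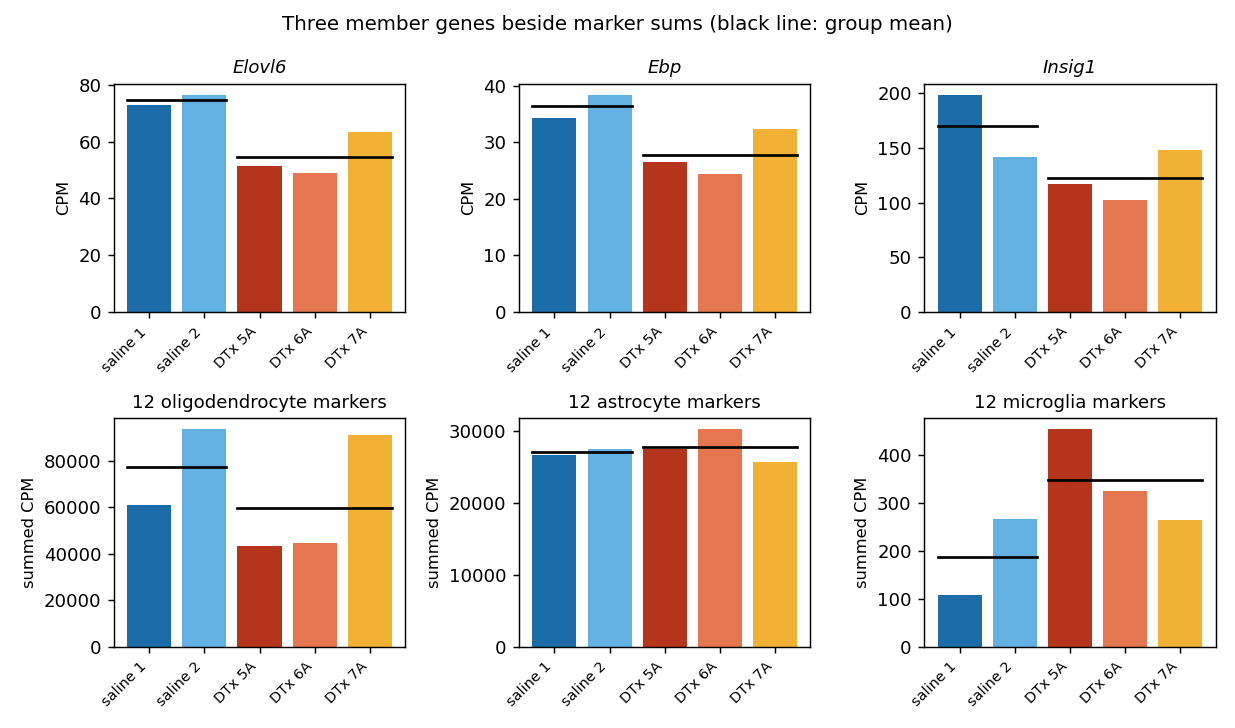
Level of Elovl6, Ebp and Insig1 in CPM (upper row) and summed CPM of 12 oligodendrocyte, 12 astrocyte and 12 microglia markers (lower row) in each library, with black lines at the group means and axes from 0. Libraries 5A and 6A are the lowest in all 3 genes and in the oligodendrocyte sum, while the astrocyte sum stays between 25702.5 and 30190 CPM.

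Of the other fatty acid genes, Fasn, the fatty acid synthase, stood at 322 and 205 CPM with saline and at 205, 232 and 276 CPM under the DTx label. Saline replicate 1 was the highest and saline replicate 2 lay within 1 CPM of the lowest library, and the log2 fold change was -0.15 ± 0.24 (SE). Acly, the citrate lyase that yields cytosolic acetyl-CoA, had the narrowest spread of the 30 genes, with the highest library 1.10 times the lowest. Acaca, the acetyl-CoA carboxylase that commits carbon to fatty acids, ranged from 34.1 CPM (5A) to 46.6 CPM (7A), with a log2 fold change of -0.078.

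Differences between single libraries cut across the labels. DTx library 6A was the lowest of the 5 libraries for 14 of the 30 genes, where 18.3% of all genes tested were lowest in it. Library 7A was the lowest for 0 of the 30, beside 13.9% of all genes. In the mevalonate arm 6A was lowest for 5 of 7 genes, and among the enzymes from squalene to cholesterol for 6 of 11. The median deviation of the latter from each gene's own mean was -0.22 on the log2 scale in 6A and 0.060 and 0.049 in 5A and 7A, so the DTx-labelled libraries did not share it. Among the regulators and the sterol carrier, saline replicate 1 was highest for 4 of 6 genes, where 26.4% of all genes tested were highest in it. Their median deviation was 0.35 in saline replicate 1 against 0.010 in saline replicate 2. Over the 30 genes the highest library was a median of 1.42 times the lowest, beside 1.39 for the 7818 genes with a mean at or above that of Idi1. The 30 genes thus varied about as much as other genes of that range.

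**Figure D4:**
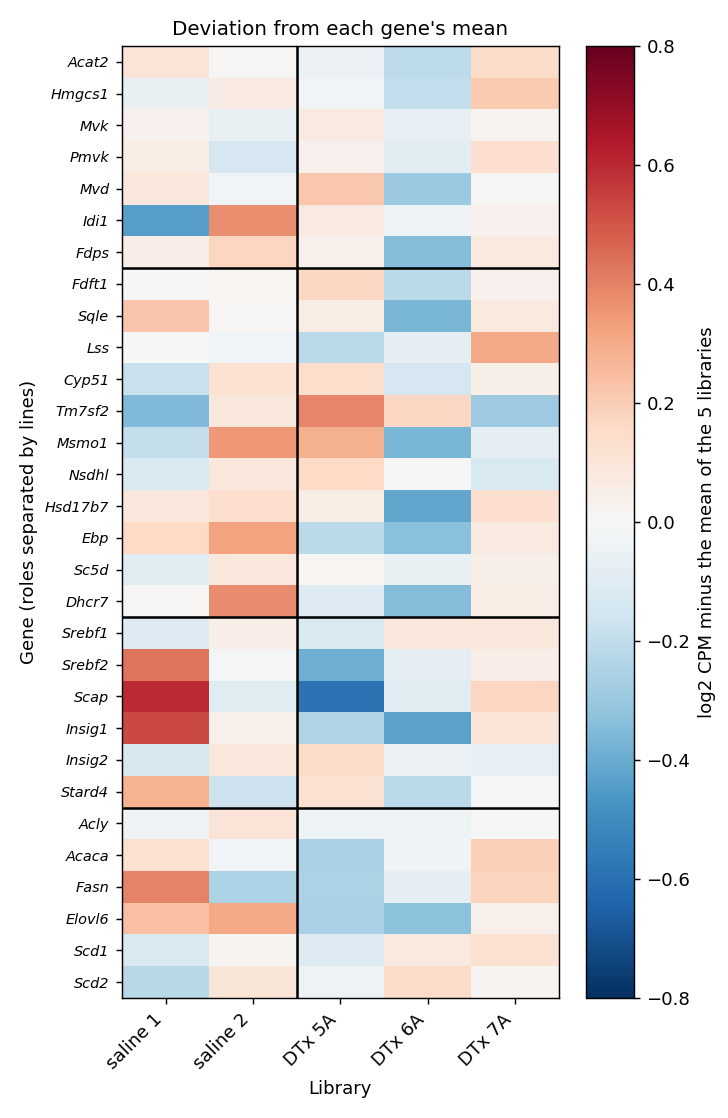
Log2 CPM of each of the 30 genes in each library minus that gene's mean over the 5 libraries (red above, blue below), with lines between the 4 roles and between saline and DTx-labelled libraries. Library 6A is blue through most of the sterol enzymes, and saline replicate 1 is the reddest for Scap, Insig1 and Srebf2.

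Other genes of the pathway were read from 3 lists in the same fit, and 0 of the 72 genes tested passed the threshold in either direction with edgeR. Among 25 genes of SREBP processing and precursor supply, 10 had fold changes above 0 and 15 below, with a median of -0.071 and 0 at an unadjusted p under 0.05. Mbtps2, the site-2 protease that releases the SREBPs, stood at 12.1 and 14.6 CPM with saline and 9.41, 7.84 and 10.99 CPM under the DTx label (log2 fold change -0.51 ± 0.21, SE, adjusted p = 0.748). Mbtps2, like Ebp, lies on chromosome X. For these genes, as for those on other chromosomes, sex chromosomes and treatment cannot be told apart. Nus1, a subunit of the dolichol-forming prenyltransferase, had a log2 fold change of -0.35.

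Among 25 genes of fatty acid elongation, desaturation and activation, 12 were above 0 and 13 below, with a median of -0.0059, and 2 were lower at an unadjusted p under 0.05. These were Elovl4, an elongase of very long chains, at 36.4 ± 2.52 CPM (SD, n = 2) with saline and 27.8 ± 2.71 CPM (SD, n = 3) under the DTx label, and Fads6, a desaturase family member, at 33.4 ± 2.56 and 22.0 ± 6.68 CPM. Acsl5, an acyl-CoA synthetase, had a log2 fold change of 0.51 ± 0.24 (SE). In the list of sterol esters, oxysterols and LXR signalling 22 of 24 genes were tested, 7 above 0 and 15 below, with a median of -0.10. At an unadjusted p under 0.05 there were 1 higher and 4 lower, beside 4.49% and 2.19% of all genes. Stard3, a late endosomal cholesterol transporter, was at 49.9 ± 5.55 and 37.8 ± 2.95 CPM, and Ncoa3, a nuclear receptor coactivator, at 35.8 ± 7.40 and 23.8 ± 5.09 CPM. Rxra, the partner receptor of LXR, was the gene higher under the DTx label, at 14.6 ± 0.883 and 20.2 ± 2.49 CPM, and the edgeR adjusted p of these 3 genes was 0.742 to 0.744.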

How the data were processed

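Bulk RNA sequencing of 5 libraries of ACSA-2-selected amygdala cells (2 saline, 3 DTx), each made from 5 ng of RNA per the labels' protocols, was analysed. The authors deposited raw read counts per gene, and per the submitters' processing notes they used fastp 0.23.2, STAR 2.7.5c, featureCounts 2.0.1 and the builds GRCm38 and mm10. The sources used here do not give counting settings, annotation or use of strand. Of the 30 genes, 16 overlap another gene in GENCODE M21, 11 of them on the opposite strand, so their counts may hold reads of that gene. Saline columns were matched by the word Ctrl and their number, DTx columns to the group only, and 1 further column of per-sample values was not used. The series' design text gives 3 saline animals. Whether each library came from its own animal is not stated, so p-values reflect only how these libraries spread, which may be technical. No pair agreed within sampling noise (chi-square per degree of freedom at least 14.2).

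Genes were tested with edgeR 4.0.16 (R 4.3.3): TMM, filterByExpr (minimum count 10) and a robust quasi-likelihood fit with its F test, adjusted by Benjamini-Hochberg over 15532 genes, threshold 0.05. Log2 CPM used a prior count of 2. Intervals are t intervals from the fit. The script was tested on simulated data, where it called 21.6% of 2-fold, 64.9% of 4-fold and 90.8% of 8-fold changes. The changed genes were drawn at random from all genes kept. Many changes of 2-fold would thus be missed over all genes, and the share for the members was not measured. Members and lists were chosen with earlier results of these data known. In each role the 4 members with the smallest p and the most abundant per coding length (the same members per exonic length) have every library's value, and in each list the 3 genes with the smallest p are named, except 1 that is not reported here. Other scalings, filters, DESeq2 1.42.0, limma 3.58.1 (voom), the likelihood ratio test, each library left out and, chosen after seeing the data, edgeR's legacy quasi-dispersion were tried.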

Additional observations from a re-analysis of the deposited data

How the results depend on the processing

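No member passed the threshold under any alternative tried. The member median log2 fold change ranged from -0.11 (without 7A) to 0.0087 (without 6A). Over all genes 5 were called with edgeR, which were Xist and the 4 Y-linked genes. The count was 111 with DESeq2 and 93 with the likelihood ratio test. It was 3 to 13 with a DTx library left out, the lowest without 6A and the highest without 7A. The cause was not tested. Members with groups that did not overlap numbered 1 with DTx higher under total-count scaling (Scd1), beside 11.8% of all genes, and 3 with DTx lower under total-count and upper-quartile scaling, which added Dhcr7, beside 8.4% and 8.6%. With a library left out they numbered 1 to 8 with DTx higher and 2 to 10 with DTx lower, where smaller groups overlap less by construction. The highest counts were those without saline replicate 2 (8 higher, beside 33.0% of all genes) and without 7A (10 lower, beside 21.7%). Of the 30 members, 26 kept their direction outside the left-out libraries and 12 kept it in every alternative. Outside the left-out libraries the sign changes were in 4 genes near 0. Hmgcs1 was at -0.0093 with RLE scaling and DESeq2, -0.013 without a filter and -0.0079 with limma-voom. Idi1 was at -0.0079, -0.0075 and -0.014 with RLE, DESeq2 and no filter. Fdft1 was at 0.011 and 0.0053, and Sc5d at 0.015 and 0.011, with upper-quartile and total-count scaling, and Sc5d at 0.00046 with genes of at least 1 CPM in 2 libraries. With a library left out the log2 fold changes that changed sign ranged from -0.11 to 0.0898 for Hmgcs1, -0.021 to 0.068 for Mvk, -0.030 to 0.16 for Pmvk, -0.18 to 0.077 for Mvd, -0.35 to 0.47 for Idi1, -0.099 to 0.087 for Fdft1, -0.14 to 0.13 for Lss, -0.10 to 0.20 for Cyp51, -0.38 to 0.16 for Msmo1, -0.072 to 0.14 for Nsdhl, and -0.087 to 0.084 for Sc5d. They ranged from -0.033 to 0.13 for Srebf1, -0.073 to 0.15 for Insig2, -0.31 to 0.14 for Stard4, -0.12 to 0.016 for Acly, -0.20 to 0.026 for Acaca, -0.44 to 0.21 for Fasn and -0.052 to 0.27 for Scd2. With a library left out, the values that kept their sign ranged from -0.57 to -0.38 for Elovl6 and -0.52 to -0.31 for Ebp. They ranged from -0.70 to -0.21 for Insig1, -0.74 to -0.044 for Scap, -0.55 to -0.11 for Srebf2 and -0.51 to -0.13 for Dhcr7. The ranges were -0.25 to -0.055 for Fdps, -0.29 to -0.053 for Sqle, -0.27 to -0.019 for Hsd17b7 and -0.18 to -0.0037 for Acat2. Those above 0 were 0.020 to 0.47 for Tm7sf2 and 0.0094 to 0.16 for Scd1. Where a saline library was left out, the lone one was assumed to vary like the other group. No paired analysis was possible because the DTx columns carry none of the labels' numbers.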
